A study of Mus musculus with 8 samples.

Results

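The basement membrane and vascular matrix genes described here are 39 genes for the proteins that endothelial cells rest on, anchor to or secrete into the vessel wall. They were taken by symbol from the gene list of the second run and matched to the first run by gene identifier, and all 39 were found among the 30406 identifiers that both lists hold. Each of the 39 had at least 1 count in the cells used. The data are single-cell RNA counts of YFP-positive cells sorted from male ROSA26-eYFP+/+ Cdh5-CreERT2+ mice. In these mice the vascular endothelial cadherin promoter drives a Cre that tamoxifen activates, so that YFP marks endothelial cells and any cell derived from them after the tamoxifen. All mice, controls included, were given tamoxifen diet for 2 weeks, starting at 6 weeks of age. At 8 weeks they were put on chow with 5.8% fat or a high fat diet with 60% fat, for 12 to 13 weeks. Each library pools the mesentery, or the epididymal adipose tissue, of 6 mice, Actinomycin D, an inhibitor of transcription, was present during digestion, and about 5000 cells were the target. The 4 groups are mesentery on chow, mesentery on high fat diet, adipose on chow and adipose on high fat diet, each with 1 library in run A and 1 in run B. The runs are repeats of the whole experiment. The comparisons ask how diet changed these genes within each tissue, how the tissues differed, and whether diet acted differently in the tissues.

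The vascular basement membrane is a thin sheet under the endothelium. Laminins and the type IV collagen of Col4a1 and Col4a2 form its networks, nidogen and the heparan sulphate proteoglycans perlecan (Hspg2) and agrin link or fill them, and the multiplexin collagens Col15a1 and Col18a1 lie at its edge. Large vessels add elastic fibres made of elastin on a fibrillin scaffold, with fibulins and emilin as assembly factors and lysyl oxidases as cross-linking enzymes. Matricellular proteins such as Sparc and the Ccn family bind matrix and alter how cells respond to it, and Mgp restrains calcification of the vessel wall.

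Col4a1 and Col4a2 lie head to head, and their start regions are shown because both genes rose on high fat diet in venous-like and lymphatic-like cells of mesentery, described below. Fbln2, the member with the largest fitted rise on high fat diet in lymphatic-like cells of mesentery, is shown beside them. Each sequence is the RefSeq window of 250 bases before to 50 after the start in GRCm38.p6, 5′ to 3′ on the gene's own strand. Capitals mark the GC box (GGGCGG) and the CCAAT box (CCAAT), searched on both strands, so that CCGCCC and ATTGG are the same boxes read from the other strand, and no marked box overlaps another.
Col4a1, chr8:11312777-11313076, minus strand: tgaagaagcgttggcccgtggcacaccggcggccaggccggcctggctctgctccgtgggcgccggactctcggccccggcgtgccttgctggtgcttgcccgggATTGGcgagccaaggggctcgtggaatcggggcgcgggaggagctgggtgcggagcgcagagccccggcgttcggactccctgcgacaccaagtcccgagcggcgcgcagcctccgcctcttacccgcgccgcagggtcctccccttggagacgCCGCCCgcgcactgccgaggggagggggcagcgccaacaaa
Col4a2, chr8:11312555-11312854, plus strand: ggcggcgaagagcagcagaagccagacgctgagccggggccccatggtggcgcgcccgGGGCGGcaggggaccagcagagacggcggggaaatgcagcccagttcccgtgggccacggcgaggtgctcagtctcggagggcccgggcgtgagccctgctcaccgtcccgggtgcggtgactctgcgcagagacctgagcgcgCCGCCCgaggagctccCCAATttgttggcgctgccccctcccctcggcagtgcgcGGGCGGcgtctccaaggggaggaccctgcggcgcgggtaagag
Fbln2, chr6:91212514-91212813, plus strand: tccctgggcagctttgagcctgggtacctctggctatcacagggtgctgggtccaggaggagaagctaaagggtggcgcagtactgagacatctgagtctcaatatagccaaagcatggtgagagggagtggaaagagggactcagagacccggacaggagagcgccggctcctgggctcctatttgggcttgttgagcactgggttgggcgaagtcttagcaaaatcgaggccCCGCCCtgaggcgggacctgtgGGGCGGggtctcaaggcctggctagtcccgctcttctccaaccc
The Col4a1 and Col4a2 windows share 78 bases (chr8:11312777-11312854), read in opposite directions, and their start sites are 21 bases apart. The Col4a1 window holds 1 GC box and 1 CCAAT box, the Col4a2 window 3 and 1, and the Fbln2 window 2 and 0. None of the 3 holds the TATA box letters TATAAA. Windows were matched by symbol for 26 of the 39 genes, which have 29 windows. A GC box is in 21 of those 29 (72.4%) and in 35.7% of the 32851 windows of the table, a CCAAT box in 9 (31.0%) against 37.4%, and TATAAA in 2 (6.9%) against 13.6%. These are matches of letters and say nothing of whether a factor binds.

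Total UMIs per library were 3461360 to 6714473 in run A and 18829960 to 36779289 in run B, and 980 to 1874 and 2914 to 5365 cells per library were used. Of the 23113 cells, 18328 were in clusters counted as endothelial, and the sort also held 978 mural-like, 710 fibroblast-like and 959 macrophage-like cells. The clusters counted had an endothelial marker level of at least 0.75 and were named as an endothelial class or left unnamed. They include the 886 cells of unnamed cluster 10, whose leading genes include the adipocyte markers Car3, Cfd and Adipoq. Cells were clustered without the 39 genes, after a correction for run, and named from marker lists, with "-like" because the names are rebuilt here. Levels are CPM, the usual scale of counts per library size: the gene's UMIs summed over the cells of a class in a library, relative to all UMIs of those cells. Paired values are given in the order run A, run B, and where a pair stands against another with no diet named, the first is chow and the second high fat diet. Some clusters stood apart and bear on the results. Cluster 16, an arterial-like cluster whose leading genes by fold include Mgp, Bgn and Eln, held 57.6% (exact 95% interval 50.0 to 65%) and 31.6% (exact 95% interval 28.2 to 35.2%) of the arterial-like cells in mesentery on chow but 21.4% (exact 95% interval 14.3 to 29.9%) and 3.43% (exact 95% interval 2.16 to 5.15%) on high fat diet. In adipose its shares were 11.3% and 3.58% on chow and 2.34% and 0.7% with high fat diet. These intervals cover counting error only. Cluster 19 (lymphatic-like, led by Marco, with F8 and Stab2) held 15% and 42.8% of the lymphatic-like cells in mesentery on chow, 2.96% and 1.53% with high fat diet, and no cell from adipose. Cluster 7 held 84.2% and 66% of the venous-like cells in mesentery on chow against 47.1% and 19.5% on high fat diet, while cluster 14 came almost entirely from adipose. Cluster 27, a venous-like cluster with Glycam1, Fut7, Madcam1 and Ccl21a among its leading genes, came from mesentery except for 2 cells. Ccl21a is also on the list of lymphatic markers. The 7 lymphatic markers of the venous-like class summed to 1889 and 3675 CPM in mesentery on chow against 175 and 256 in adipose on chow. The part of cluster 27 in the tissue differences was not tested. In the capillary-like class, cluster 3, with Car3 and Cfd, genes of adipocytes, among its leading genes, held 31.7% and 48.9% of the cells in mesentery on chow and 15.2% and 4.57% with high fat diet, and 17.1% and 73.4% and 56.4% and 3.13% in adipose. Cluster 1 held most of the rest of that class. Capillary-like cells were few in mesentery of run A, 41 on chow and 46 on high fat diet, against 777 and 920 in run B. Between libraries, 72 cell barcodes were shared.

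The members' share of the RNA differed by class. The 39 genes together made up 1.42 to 3.55% of the UMIs of arterial-like cells over the 8 libraries, 0.91 to 1.35% of capillary-like, 0.846 to 1.33% of venous-like and 0.582 to 0.854% of lymphatic-like cells. In lymphocyte-like cells, which should lack these genes and so show the level of free RNA, the share was 0.016 to 0.111%. The order of the classes below is by median over libraries and was not tested, since the clusters were made from the same cells.

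Among the basement membrane genes, the type IV chains Col4a1 and Col4a2 were highest in capillary-like and mural-like cells. Col4a1 had a median of 1503 (736 to 2617) CPM in capillary-like and 1462 (278 to 2431) in mural-like cells, where the brackets give the lowest and highest library. It had 377 (211 to 791) in lymphatic-like, 366 (224 to 1101) in arterial-like and 238 (115 to 1105) in venous-like cells, ranges that overlap. In lymphocyte-like cells the median was 17.8. Hspg2, the gene for perlecan, was likewise highest in capillary-like cells at 408 (360.5 to 530.1), above every library of arterial-like cells (50.4 to 213) and venous-like cells (153 to 286). Lama4, the laminin chain typical of endothelium, was highest in lymphatic-like cells at 349 (228 to 449), and the capillary-like libraries (62.4 to 211) all lay below that range. Lama5, another laminin alpha chain, had its lowest endothelial level in the same class, 7.17 (4.58 to 21.3), against 74.3 (62.6 to 115) in arterial-like cells. Laminin chains Lamb2 and Lamc1, and Nid1, the linker protein nidogen, had their highest medians in fibroblast-like cells, 535, 227 and 649.7 CPM. Col15a1 was present in capillary-like (98) and venous-like (91.1) cells and close to 0 in lymphatic-like cells (1.18). Col18a1, whose C-terminal fragment is endostatin, showed the other order, with 272 (142 to 395) in lymphatic-like, 195 (82.2 to 324) in arterial-like and 49 (17.2 to 133) in venous-like cells. Agrn stayed at medians of 30.9 to 70.0 CPM over the 4 endothelial classes. Lamb1 was lowest in arterial-like cells, 14.3 (2.61 to 18.3), below every library of the other endothelial classes. Its highest endothelial median was in lymphatic-like cells, 140.2 (93.5 to 240).

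**Figure D1:**
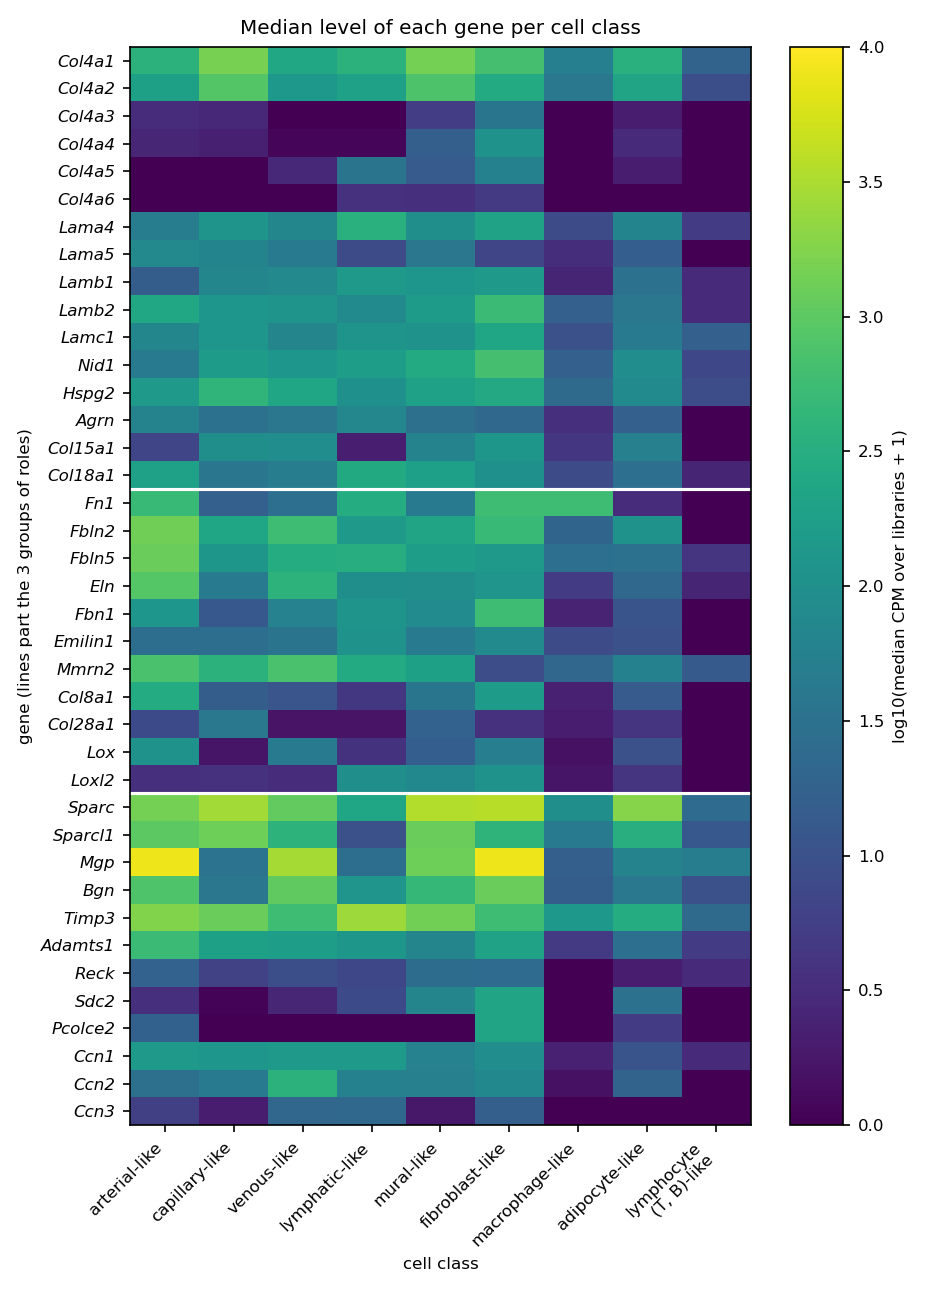
Median level of each of the 39 genes (vertical axis, in 3 groups of roles) per cell class (horizontal axis), as log10(median CPM over libraries + 1). Type IV collagen is bright in capillary-like and mural-like cells, elastic fibre genes and Mgp in arterial-like cells, and Col4a3 to Col4a6 are dark in most classes.

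The genes of elastic and adhesive fibres had their highest endothelial medians mainly in arterial-like cells. Fbln5, which tethers elastin to cells, had 1230.3 (608 to 1464) CPM there against 315 (65.2 to 505) in lymphatic-like and 295 (216 to 520.3) in venous-like cells, with no arterial-like library overlapping either class. Fbln2 had 1349 (919.6 to 1699.7) in arterial-like cells, overlapping the 563 (111 to 1478) of venous-like cells. Eln, elastin itself, had 866 (209.5 to 1057) in arterial-like cells, a range that reached into that of venous-like cells (232 to 486). Lox, which cross-links elastin and collagen, had 109 (42.1 to 158) in arterial-like and 41.3 (21.4 to 53.2) in venous-like cells. Its relative Loxl2 had another place, 97.6 (74.5 to 157) in lymphatic-like cells and medians of 2.73 or less in the 3 blood vessel classes. Col8a1, a short-chain collagen of the vessel wall, had 285 (62.6 to 457) in arterial-like cells. Col28a1, a collagen related to those of type VI, had 38.8 (0 to 59.2) in capillary-like cells. Fn1, fibronectin, had medians of 516 in arterial-like, 576 in fibroblast-like, 575 in macrophage-like and 302 in lymphatic-like cells, but 16 and 27.4 in capillary-like and venous-like cells. Mmrn2, an endothelial surface glycoprotein, had 713 and 707 in arterial-like and venous-like cells and 7.96 in fibroblast-like cells. Fbn1, fibrillin, was highest in fibroblast-like cells (579), and Emilin1 in lymphatic-like cells (109, libraries 80.7 to 166).

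Among matricellular genes and regulators, lymphatic-like cells had lower medians of Sparc and Sparcl1 than the other endothelial classes and the highest of Timp3. Sparc had 2772 (1714 to 5059) CPM in capillary-like and 229 (80.7 to 501) in lymphatic-like cells, and Sparcl1 1306 (816 to 1957) and 8.78 (0.922 to 23). Timp3, an inhibitor of metalloproteinases that binds matrix, had 2551 (1882 to 3723) in lymphatic-like cells, above each venous-like library (456 to 801). Mgp had 8049 (914 to 22973) in arterial-like, 2853 (662 to 5385) in venous-like and 7926 in fibroblast-like cells. In capillary-like and lymphatic-like cells its medians of 33 and 27.2 were below the 48.9 of lymphocyte-like cells, the level of free RNA. Bgn, biglycan, had medians of 1205 in fibroblast-like, 1063 in venous-like and 794 in arterial-like cells. Ccn2, also called connective tissue growth factor, had its highest median in venous-like cells, 371 (93.1 to 932). Pcolce2, an enhancer of procollagen processing, and Sdc2, a cell surface proteoglycan, had 212 and 212 in fibroblast-like cells and medians of at most 16.6 and 6.99 in the endothelial classes. Reck, a membrane-anchored inhibitor of metalloproteinases, and Ccn3 had medians of at most 17.1 and 21.2 in these classes. Many members differed by run. Of the members with more than 3 counts in each library, 9 of 28 in arterial-like cells were higher in run B in all 4 groups and 7 in run A. These numbers were 3 and 7 of 22 in capillary-like, 15 and 7 of 29 in venous-like, and 5 and 3 of 28 in lymphatic-like cells. Adamts1, a protease of proteoglycans, and Ccn1, an immediate early matricellular gene, were among them. In each of the 4 groups and 4 classes both were lower in run B, with Adamts1 at 0.079 to 0.547 times its level in run A and Ccn1 at 0.059 to 0.366 times. Mgp in arterial-like cells was at 0.147 to 0.497 times, while Col4a2 there was higher in run B, at 2.69 to 6.29 times its level in run A.

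The 4 remaining type IV chains, Col4a3 to Col4a6, form other networks than Col4a1 and Col4a2 and were near 0 in most endothelial classes. Col4a6 had no count in arterial-like or venous-like cells of any library. Col4a5 was an exception in lymphatic-like cells, with 36.9 and 26.9 CPM in mesentery on chow, 29.3 and 62.5 there with high fat diet, 16 and 51.1 in adipose on chow, and 25.4 and 45.1 in adipose on high fat diet. All 4 chains had high levels in cluster 24, which carried markers of both mural cells and fibroblasts, stayed unnamed and came from adipose. There Col4a3 had 331 and 427 CPM on chow against 126 and 162 on high fat diet, and Col4a4 had 992 and 1318 on chow against 727 and 636 on high fat diet. Both were lower on high fat diet in each run, which was not tested. Col4a5 had 148 and 331 on chow against 162 and 343 on high fat diet, and Col4a6 had 110.3 and 161 on chow against 189 and 126 on high fat diet.

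The mural-like class is 1 cluster whose cells were unlike in the runs, so its levels are given by run. Run A mesentery gave 0 and 1 of these cells. In run B, Rgs5, a pericyte marker, had 3275 to 4501 CPM and Dcn, a fibroblast gene, 1.42 to 15.2. In adipose of run A, Rgs5 had 53.9 on chow and 24.3 on high fat diet, Dcn 4439 and 4732, and the smooth muscle gene Acta2 8773 and 6831. The run B cells also carried Cdh5, an endothelial gene, at 798 to 1099 CPM. Col4a1 in this cluster had 1348, 2431, 1779.9 and 1576 CPM in run B (mesentery on chow and high fat diet, then adipose likewise). In adipose of run A it had 389.5 on chow against 278 on high fat diet, below all 4. Col4a4 showed the other order, 822 and 609 in run A and at most 27.3 in run B, as did Mgp with 9636 and 7551 against at most 1618. In fibroblast-like cluster 15, Sparc had 3073 and 2259 CPM in adipose on chow against 8197 and 6961 on high fat diet, higher on high fat diet in both runs. Bgn had 1001 and 992 on chow against 2647 and 1741 on high fat diet there, again without overlap. With finer clustering, a fibroblast-like cluster with Penk and Sfrp1 among its leading genes held 98 and 46 adipose cells on chow against 53 and 40 on high fat diet. Another, with Col3a1 and Col1a1, held 9 and 4 against 39 and 26, and the one led by Dpt 0 and 5 against 0 and 42. The part of this makeup in the levels of Sparc and Bgn was not tested. Diet was not tested in mural-like or fibroblast-like cells.

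For the endothelial classes, counts were summed per library and tested with edgeR's quasi-likelihood test, adjusted over all genes tested. A gene is called at an adjusted p under 0.05. Each group has 2 pools of 6 mice, and p-values measure the spread between these pools. In the fits with the run in the model, they measure what is left of that spread after the run difference common to the groups. Without the run in the model, 0 members were called in the 16 comparisons (4 classes by diet in mesentery, diet in adipose, tissue, and diet by tissue), and between 0 and 0.575% of all genes were. At an unadjusted p under 0.05 that edgeR fit had from 18 genes (diet by tissue in the capillary class) to 675 (diet in mesentery in the lymphatic class), and DESeq2 called 7 results among the members. These were Fbln2, Fn1 and Col4a2 for diet in mesentery, Fbln5 between tissues and Fbln2 for diet by tissue in lymphatic-like cells, Pcolce2 between tissues in arterial-like cells and Col8a1 between tissues in venous-like cells. With no filter on low counts, members were called by edgeR in 8 of the 16 comparisons, up to 4 in each. The run letters pair the libraries (the repeat of the experiment, with deviations from the group means correlated in every pair), so a fit that has the run as a block is given beside it and is the one meant by "fitted" and "called" from here on. Fold changes are log2, high fat diet minus chow or mesentery minus adipose. The calls below are edgeR's with the block, and edgeR at the same settings without it made none of those among the members. Restricted to cells of at least 1000 UMIs, edgeR without the block called Fbln2 for diet in mesentery in lymphatic-like cells (adjusted p = 0.0468).

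In arterial-like cells of mesentery, high fat diet came with lower Mgp, Bgn, Eln and Lox and with higher Col18a1, Col4a2 and Sparc. With the block, 11 of the 35 members tested were called, 3 higher and 8 lower, where 3.04% of all genes tested were called (1.27% higher and 1.76% lower). By role, 2 of 13 basement membrane genes rose and 1 fell, 0 of 10 fibre genes rose and 2 fell, and 1 of 12 matricellular genes and regulators rose and 5 fell. The median change of the 35 was 0.15, and that of all genes -0.01.

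Of the basement membrane genes, Col18a1 had 82.2 and 87 CPM in mesentery on chow against 197 and 193 on high fat diet. Both libraries on high fat diet were above both on chow. The fitted change was 1.13 ± 0.22 (SE), with an edgeR adjusted p of 0.0053. Col4a2 had 66.5 and 179 on chow against 97 and 609.7 on high fat diet, where the groups overlap because run B was higher throughout, and it rose in both runs. Its fitted change was 1.29 ± 0.26 (SE) (edgeR adjusted p = 0.00791). Col4a4 went the other way, with 17 and 32 counts on chow against 1 and 2 on high fat diet. The ratio of chow to high fat diet was 16.5 (95% counting interval 5.34 to 82.9, edgeR adjusted p = 0.0133). These 3 calls were lost without mesentery on chow B or on high fat diet B, with an edgeR adjusted p of up to 0.378 for Col18a1, 0.767 for Col4a2 and 0.703 for Col4a4. In cluster 4, the largest arterial-like cluster, alone, the fitted differences were 1.03 for Col18a1 and 1.02 for Col4a2, with edgeR adjusted p of 0.235 and 0.184.

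Of the elastic fibre genes, Lox had 158 and 121 CPM on chow against 97 and 42.1 on high fat diet, lower on high fat diet in both libraries. Its fitted change was -1.25 ± 0.26 (SE) (edgeR adjusted p = 0.00776). Eln had 1057 and 934 on chow against 928 and 219.8 on high fat diet, close in run A and lower in run B. Its fitted change was -1.30 ± 0.31 (SE) (edgeR adjusted p = 0.0204). The Lox call was lost without mesentery on chow B or on high fat diet B (adjusted p up to 0.556, edgeR), and the Eln call without any 1 of the 4 run B libraries (up to 0.715, edgeR).

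Of the matricellular genes and regulators, Reck had 61.3 and 71.9 CPM on chow against 13.9 and 10.8 on high fat diet. No library of the groups overlapped. The fitted change was -2.61 ± 0.33 (SE) (edgeR adjusted p = 0.000128). Mgp had 22973 and 11421 on chow against 9991 and 1469.6 on high fat diet, and Bgn 1795 and 1034 against 1053 and 247. Mgp did not overlap, and the lower Bgn library on chow was just below the higher one on high fat diet. Their fitted changes were -2.25 ± 0.30 (SE) and -1.51 ± 0.25 (SE), with edgeR adjusted p of 0.000221 and 0.00107. Pcolce2, with 141 and 43.5 on chow against 66.5 and 16.2 on high fat diet, changed by -1.34 ± 0.26 (SE) (edgeR adjusted p = 0.0058). Sdc2 had 11 and 21 counts on chow against 0 in both libraries on high fat diet, which is at least 10.8-fold lower against a floor of 3 counts over the group (edgeR adjusted p = 0.0106). Sdc2, Pcolce2 and Col4a4 had higher medians in fibroblast-like cells (212, 212 and 111 CPM) than in arterial-like cells (2.42, 16.6 and 1.67). The part of fibroblast RNA in their falls was not tested. Sparc, named beyond the 10 smallest p, rose from 904 and 1219 to 1524 and 3053 CPM, by a fitted 0.95 ± 0.24 (SE, edgeR adjusted p = 0.029). Its call was lost without mesentery on high fat diet A or B or on chow B (edgeR adjusted p up to 0.493), and in cluster 4 alone it was 1.41 (edgeR adjusted p = 0.00562). Without mesentery on high fat diet B the edgeR calls of Reck, Mgp, Bgn, Pcolce2 and Sdc2 were lost. All of these but that of Mgp were also lost without mesentery on chow B, and that of Sdc2 without adipose on chow B as well. The highest adjusted p were 0.227, 0.121, 0.334, 0.438 and 0.671.

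These falls moved with the share of cluster 16. Within that cluster Mgp had 28048 and 24515 CPM on chow against 28337 and 20645 on high fat diet, Bgn 2289 and 2160.2 against 2804 and 2931, and Eln 1273 and 1735 against 2061 and 1612. None of the 3 was lower with high fat diet in both runs. In cluster 9, Mgp had 18379 and 4692 on chow against 5363 and 1577 on high fat diet, lower in both runs, and in cluster 4 1563 and 145 against 1245 and 112. In cluster 4 alone the fitted differences were -0.29 for Mgp, -0.47 for Bgn, -0.15 for Eln, -0.58 for Lox and -0.47 for Pcolce2, each with an edgeR adjusted p of 0.999. Reck in cluster 16 had 79.6 and 157 on chow against 53.1 and 123 on high fat diet, lower in both runs but overlapping. Summed venous markers, 9 genes, moved as well in the whole class, from 1603 and 669.9 CPM on chow to 792 and 229 on high fat diet, and the 8 capillary markers from 214 and 1714 to 457 and 4839. The part of these markers in the results was not tested. In mesentery the arterial-like class held 177 and 705 cells on chow against 117 and 641 on high fat diet. With finer clustering it held 164 and 612 against 98 and 376. A finer cluster named capillary, which shares the leading genes Slc6a6 and Rbp7 with cluster 4, held 18 and 155 against 34 and 480. The part of such cells in the differences within cluster 4 was not tested.

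**Figure D2:**
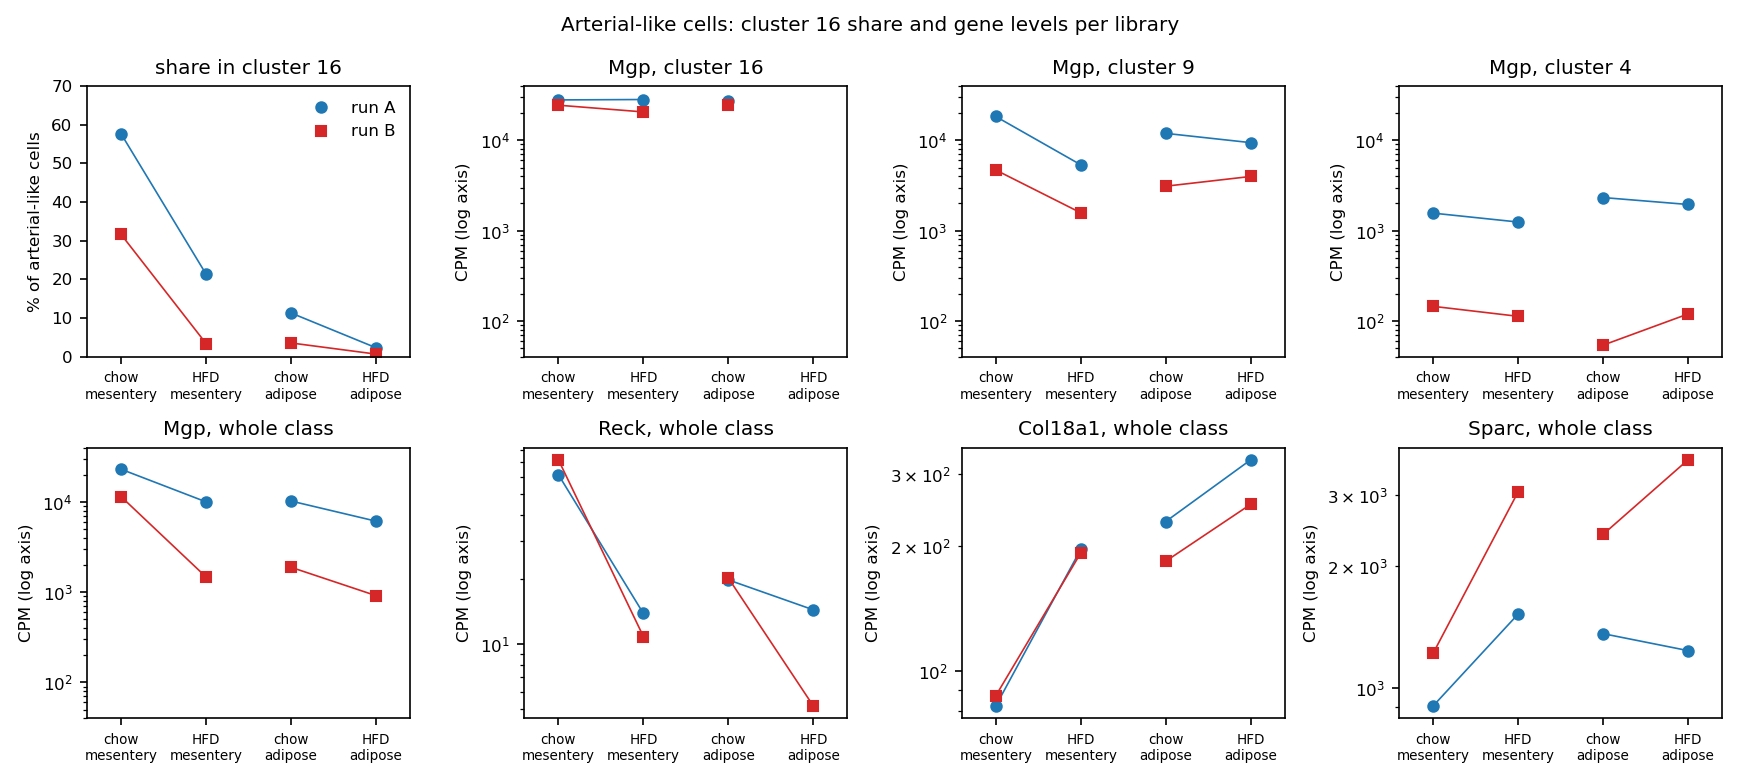
Arterial-like cells by group (horizontal axis) and run (points, joined within a run and tissue): the share of cells in cluster 16 (percent), Mgp in clusters 16, 9 and 4, and Mgp, Reck, Col18a1 and Sparc in the whole class (CPM, log axes). The share of cluster 16 is lower with high fat diet in both runs, while Mgp within it stays between 20645 and 28337 CPM. Cluster 16 is left blank in adipose on high fat diet, where it held under 20 cells per library.

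In adipose, high fat diet gave no call among the 35 members in arterial-like cells by edgeR with the block, where 0.279% of all genes were called (0.0771% higher and 0.202% lower). The 3 with the smallest p were Reck, Ccn2 and Col18a1. Reck had 19.9 and 20.2 CPM on chow against 14.4 and 5.14 on high fat diet, a fitted difference of -1.65 ± 0.41 (SE) (edgeR adjusted p = 0.159). For Ccn2 it was -1.08 ± 0.40 (SE) and for Col18a1 0.50 ± 0.22 (SE), with edgeR adjusted p of 0.891 and 1. The test of whether diet acted differently in the tissues called 0 of the 35 members with the block and 0.00964% of all genes. Sdc2, Ccn3 and Reck had the smallest p there. Ccn3 and Reck had fitted differences of 4.26 ± 1.53 (SE) and -0.96 ± 0.55 (SE) and edgeR adjusted p of 0.801 and 1, and Sdc2 an edgeR adjusted p of 0.758. The difference between the tissues in what diet did is therefore not shown for any member in this class.

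Between tissues, arterial-like cells of adipose had more Col8a1, Col28a1, Col18a1 and Sparcl1, and those of mesentery more Pcolce2, Mgp, Bgn, Reck, Ccn3, Timp3 and Emilin1. That is 11 of 35 called with the block, 7 higher in mesentery and 4 lower, where 2.49% of all genes were called (1.27% higher and 1.21% lower). Col8a1 had 62.6 and 182 CPM against 127 and 264 in mesentery, and 306 and 457 against 356 and 449 in adipose. All 4 adipose libraries were above all 4 of mesentery. The fitted difference, mesentery minus adipose, was -1.35 ± 0.18 (SE) (edgeR adjusted p = 0.00011). Col28a1 had 0 and 1.96 against 0 and 8.26 in mesentery and 5.67 and 28 against 14.4 and 19.4 in adipose, overlapping in the lower adipose library on chow, with -2.64 ± 0.41 (SE) (edgeR adjusted p = 0.000622). Col18a1 differed by -0.86 ± 0.15 (SE) and Sparcl1 by -0.91 ± 0.18 (SE), with edgeR adjusted p of 0.00231 and 0.0051. The calls of Col8a1, Col18a1, Sparcl1 and Pcolce2 remained without each single library, and that of Col28a1 was lost without mesentery on chow B, adipose on chow B or mesentery on high fat diet B (edgeR adjusted p up to 0.604). In cluster 4 alone the differences were smaller for all 5, -0.54 for Col8a1, -0.59 for Col18a1, -0.41 for Sparcl1, 1.73 for Pcolce2 and -2.01 for Col28a1. Of these Col28a1 alone kept its call there, with edgeR adjusted p of 0.378, 0.286, 0.803, 0.531 and 0.0273.

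Pcolce2 had 17 and 3.5 CPM in adipose on chow against 3.6 and 1.71 on high fat diet, beside the mesentery values given above. Of the adipose libraries, 1 lay within the mesentery range. The fitted difference was 3.44 ± 0.27 (SE) (edgeR adjusted p = 1.13e-07). Mgp and Bgn were higher in mesentery by 1.38 ± 0.21 (SE) and 0.97 ± 0.17 (SE), with edgeR adjusted p of 0.000484 and 0.00239. In cluster 4 alone Mgp differed by -0.06 (edgeR adjusted p = 1), and Bgn was lower in mesentery, by -1.13 (edgeR adjusted p = 0.00293), so the direction of Bgn in the whole class is not that of its largest cluster. Reck differed by 1.32 ± 0.27 (SE), Ccn3 by 3.22 ± 0.69 (SE), Timp3 by 0.63 ± 0.16 (SE) and Emilin1, named beyond the 10 smallest p, by 0.85 ± 0.23 (SE), with edgeR adjusted p of 0.00655, 0.0116, 0.0427 and 0.049. Ccn3 in mesentery had 2.61 and 6.87 on chow against 63.7 and 20.5 on high fat diet, and in adipose 19.9 and 0.5 against 0 and 0.571. Reck and Ccn3 were higher in mesentery in 3 of the 4 pairs of libraries. Without adipose on high fat diet B the Mgp call was lost (edgeR adjusted p = 0.0545), and without adipose on chow B or adipose on high fat diet B that of Bgn (up to 0.108). Those of Reck and Ccn3 were lost without any 1 of the run B libraries (up to 0.546 and 0.621), and that of Timp3 without 6 of the 8 libraries, all but mesentery on chow A and adipose on chow B (up to 0.405). In cluster 4 alone Ccn3 had 3.64 and Timp3 0.28 (edgeR adjusted p = 0.00131 and 1), and Reck was not fitted. The Emilin1 call was lost without any library but mesentery on chow A (edgeR adjusted p up to 0.471), and in cluster 4 alone the difference was 0.54 (edgeR adjusted p = 1).

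In lymphatic-like cells of mesentery, high fat diet came with more of the adhesive proteins Fbln2 and Fn1, more Col4a2, Col4a1 and Fbln5, and less Sparc and Eln. With the block, 7 of 31 members were called, 5 higher and 2 lower, where 6.23% of all genes were called (2% higher and 4.23% lower). By role, 2 of 12 basement membrane genes rose and 0 fell, 3 of 9 fibre genes rose and 1 fell, and 0 of 10 matricellular genes and regulators rose and 1 fell. The median change of the 31 was 0.41, against -0.01 for all genes.

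Fbln2, a fibulin of basement membranes and elastic fibres, had 64.6 and 57.2 CPM on chow against 277 and 535 on high fat diet. Both libraries on high fat diet were above both on chow. The fitted rise was 2.72 ± 0.27 (SE) (edgeR adjusted p = 1.65e-05, and 0.0506 without the block). Fn1, fibronectin, had 122 and 95.1 on chow against 479 and 589.7 on high fat diet, again without overlap. It rose by 2.32 ± 0.24 (SE) (edgeR adjusted p = 2.24e-05, and 0.0506 without the block). Fbln5 had 154 and 65.2 on chow against 283 and 270.4 on high fat diet, with a fitted 1.43 ± 0.29 (SE) (edgeR adjusted p = 0.00554). Eln fell from 175 and 239.8 to 134 and 78.4, by -0.98 ± 0.27 (SE) (edgeR adjusted p = 0.0421). Neither gene overlapped between the diets. Col4a2 had 133 and 87.5 on chow against 276 and 359 on high fat diet, and Col4a1 409.5 and 211 against 566 and 791. Their fitted rises were 1.57 ± 0.24 (SE) and 1.16 ± 0.28 (SE), with edgeR adjusted p of 0.000632 and 0.0203. Both genes were higher in each library on high fat diet than in either on chow. Sparc had 233 and 501 on chow against 80.7 and 225 on high fat diet, lower within each run, and changed by -1.32 ± 0.21 (SE) (edgeR adjusted p = 0.000841). The calls of Fbln2, Fn1, Col4a2 and Sparc remained without each single library. Those of Fbln5, Col4a1 and Eln were lost without mesentery on chow B or on high fat diet B, and that of Eln also without adipose on high fat diet B, with edgeR adjusted p up to 0.0819, 0.275 and 0.56.

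These changes were compared with the makeup of the class, since cluster 19 was mostly in mesentery on chow. In that cluster Fbln2 had 0 and 4.46 CPM, Fn1 3.37 and 42.3, Fbln5 3.37 and 3.34 and Sparc 765 and 740.4 in mesentery on chow. In cluster 5, the largest lymphatic-like cluster, Fbln2 had 104 and 89.9 on chow against 288 and 632 on high fat diet, and Fn1 46.2 and 49.4 against 422 and 656. In cluster 5 alone the fitted rises were 2.16 for Fbln2, 3.47 for Fn1 and 0.78 for Col4a2, with edgeR adjusted p of 6.83e-06, 8.19e-09 and 0.0298. For Fbln5, Col4a1 and Eln they were 0.48, 0.37 and -0.30 (edgeR adjusted p = 0.249, 0.442 and 0.623). Sparc turned around: cluster 5 had 3 and 5 counts on chow against 22 and 57 on high fat diet, or 5.14 and 7.49 against 22.9 and 105 CPM, a rise of 3.19 (edgeR adjusted p = 8.75e-05). The fall of Sparc in the whole class is thus not seen in its largest cluster. The 7 lymphatic markers summed to 20056 and 14567 CPM on chow against 28680.0 and 37431 on high fat diet in mesentery. Markers of fibroblasts (10 genes) and mural cells (12 genes) summed to at most 75.0 and 99.6 CPM in any library of the class.

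**Figure D3:**
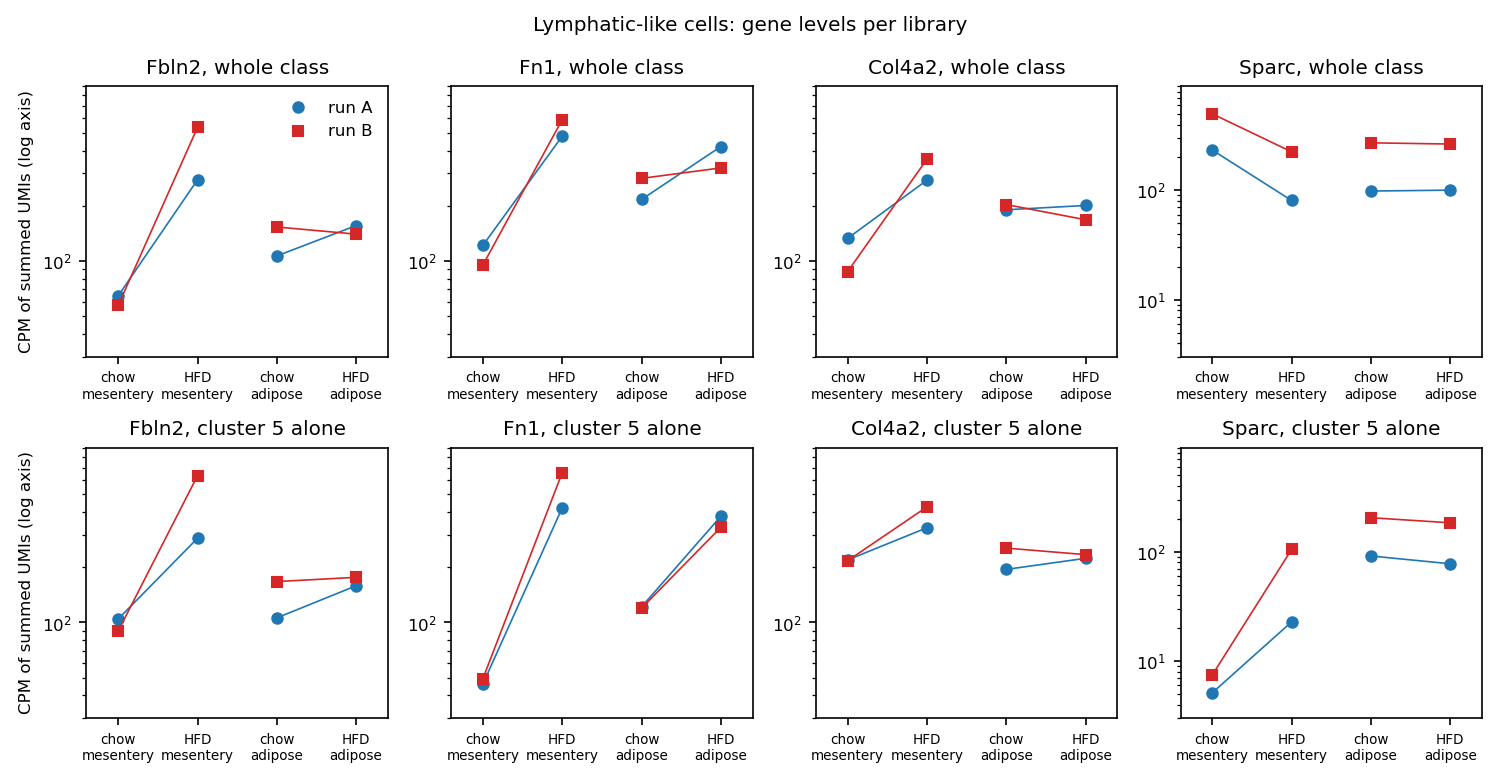
Fbln2, Fn1, Col4a2 and Sparc (CPM, log axes) in lymphatic-like cells by group (horizontal axis) and run (points, joined within a run and tissue), in the whole class (top) and in cluster 5 alone (bottom). Fbln2 and Fn1 are higher on high fat diet in mesentery in both rows, while Sparc falls in the whole class and rises in cluster 5.

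In adipose, high fat diet gave no call among the 31 members in lymphatic-like cells, and 0 of all 9037 genes were called by edgeR with the block (386 genes at an unadjusted p under 0.05, and 0 calls by DESeq2). Ccn2, Fn1 and Loxl2 had the smallest p. Fn1 had 216 and 282 CPM on chow against 421 and 322 on high fat diet, a fitted 0.59 ± 0.23 (SE) (edgeR adjusted p = 1). In cluster 5 alone it had 122 and 119.6 against 379 and 330.5, a rise of 1.56 (edgeR adjusted p = 0.0035). Ccn2 had 75.6 and 121 on chow against 55.6 and 49.8 on high fat diet, a fitted -0.88 ± 0.28 (SE), and Loxl2 had -0.40 ± 0.24 (SE), with edgeR adjusted p of 0.953 and 1.

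Diet acted differently in the tissues for 6 of the 31 members of lymphatic-like cells, 5 higher and 1 lower in mesentery than in adipose, where 1.11% of all genes were called (0.354% higher and 0.752% lower). Fbln2 had 107 and 153 CPM in adipose on chow against 156 and 140.0 on high fat diet, so that its rise in mesentery had no counterpart of that size, and the difference of the diet effects was 2.49 ± 0.38 (SE) (edgeR adjusted p = 0.00855). For Fn1 it was 1.74 ± 0.33 (SE) and for Col4a2 1.66 ± 0.34 (SE), with edgeR adjusted p of 0.0217 and 0.0276. In cluster 5 alone these differences were 1.82, 1.91 and 0.73 (edgeR adjusted p = 0.0286, 0.0174 and 0.6). Sparc, Ccn2 and Fbln5 are given with the results set apart for a closer look. Each of the 6 calls was lost without some library, Fbln2 without adipose on chow B or adipose on high fat diet B (edgeR adjusted p up to 0.096) and Fn1 without adipose on chow B, mesentery on high fat diet B or adipose on high fat diet B (up to 0.225). The Col4a2 call was lost without any of 6 libraries, all but those of run A from mesentery (up to 0.221).

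Between tissues, Fbln5, Bgn and Ccn2 were higher in lymphatic-like cells of adipose, and Lama5, Lox and Eln in those of mesentery, which makes 6 of 31 members called where 4.69% of all genes were (3.31% higher and 1.38% lower). Fbln5 had 505 and 476 CPM in adipose on chow against 347 and 425 on high fat diet, above all 4 mesentery libraries. The fitted difference was -1.38 ± 0.20 (SE) (edgeR adjusted p = 0.000524), and -0.67 in cluster 5 alone (edgeR adjusted p = 0.00755). Lama5 had 21.2 and 21.3 in mesentery on chow, 18.6 and 7.95 there with high fat diet, 4.58 and 6.38 in adipose on chow and 4.84 and 5.79 there with high fat diet, with no overlap. It differed by 1.66 ± 0.38 (SE) and Lox by 2.88 ± 0.70 (SE), with edgeR adjusted p of 0.0161 and 0.0237. Lox had 74 counts over all 8 libraries, with 1 in adipose on chow and 4 there on high fat diet, so the size of its difference is uncertain. Bgn, Eln and Ccn2 differed by -0.82 ± 0.20 (SE), 0.77 ± 0.20 (SE) and -0.74 ± 0.20 (SE) (edgeR adjusted p = 0.0285, 0.0372 and 0.0462). In cluster 5 alone they were -1.56 for Bgn, 0.54 for Eln and -0.23 for Ccn2, with edgeR adjusted p of 1.13e-05, 0.149 and 0.783, so that Bgn alone of the 3 kept its call. Bgn moved the fitted way in 3 of the 4 pairs of libraries and Ccn2 in 2 of 4. The Fbln5 call remained without each single library. The other 5 were lost without 4 to 6 of the libraries, with edgeR adjusted p up to 0.287 for Lama5, 0.428 for Lox, 0.229 for Bgn, 0.385 for Eln and 0.281 for Ccn2. The libraries were adipose on chow A, mesentery on high fat diet A, adipose on high fat diet A, mesentery on chow B or adipose on chow B for Lama5, all 4 of run B for Lox, adipose on chow A, mesentery on high fat diet A, adipose on high fat diet A or adipose on high fat diet B for Bgn, all but mesentery on chow A and on high fat diet B for Eln, and all but the run A libraries on chow for Ccn2.

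In venous-like cells of mesentery, both chains of the main type IV collagen were higher on high fat diet. They were the 2 of 34 members called, where 0.236% of all genes were called (0.151% higher and 0.0848% lower). Col4a1 had 115 and 252 CPM on chow against 223 and 1105 on high fat diet, and Col4a2 42.3 and 143 against 95.6 and 611. The groups overlap across the runs, and within each run high fat diet was higher. The fitted rises were 1.60 ± 0.27 (SE) and 1.80 ± 0.28 (SE), with edgeR adjusted p of 0.0254 and 0.0149. Both calls were lost without mesentery on chow B or on high fat diet B (edgeR adjusted p up to 0.285 and 0.298). The makeup of the class moved with them. In cluster 7, frequent on chow, Col4a1 had 48.6 and 57.3 on chow against 44.2 and 107 on high fat diet, and in cluster 6 156 and 549 against 176 and 1371. In cluster 6 alone the fitted differences were 1.03 and 0.67 (edgeR adjusted p = 0.57 and 1). The 8 capillary markers summed to 247 and 888 CPM on chow against 586 and 2381 on high fat diet, and their part in the rise was not tested.

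In adipose, 0 of the 34 members were called in venous-like cells by edgeR, where 0.066% of all genes were. Col15a1, with 37 and 62.9 CPM on chow against 38.8 and 244 on high fat diet, had a fitted difference of 1.48 ± 0.39 (SE) (edgeR adjusted p = 0.522). Fbln5 had 0.67 ± 0.23 (SE) and Reck -1.18 ± 0.45 (SE), with edgeR adjusted p of 0.852 and 0.989. The test for a different diet effect in the tissues called 0 members and 0 genes by edgeR with the block (272 at an unadjusted p under 0.05, and 0 by DESeq2). Sparcl1, Sparc and Hspg2 had the smallest p there, with 1.66 ± 0.57 (SE), 1.03 ± 0.41 (SE) and 0.52 ± 0.30 (SE) and an edgeR adjusted p of 1 each.

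Venous-like cells of adipose had more Col8a1, Ccn2, Col18a1, Adamts1, Sparc and Sparcl1 than those of mesentery. These were 6 of 34 members, all lower in mesentery, where 2.05% of all genes were called (0.943% higher and 1.11% lower). Col8a1 had 1.36 and 4.55 CPM in mesentery on chow, 0 and 1.34 there with high fat diet, 24.6 and 52.2 in adipose on chow and 24 and 16.4 there with high fat diet. No adipose library overlapped mesentery. The fitted difference was -3.92 ± 0.43 (SE) (edgeR adjusted p = 0.000192, and 0.0816 without the block), and the call remained without each single library. In cluster 6, Col8a1 had 0 and 7.07 against 0 and 1.79 in mesentery and 5.45 and 47.7 against 4.45 and 8.33 in adipose, while cluster 14, frequent in adipose alone, had 37.3 and 59.3 on chow against 33.8 and 62.9 on high fat diet. Col18a1 had 44 and 44.1 against 17.2 and 22.3 in mesentery and 133 and 59.1 against 61 and 54 in adipose, without overlap, and differed by -1.19 ± 0.24 (SE) (edgeR adjusted p = 0.0174). Its difference in cluster 6 alone was -1.64 (edgeR adjusted p = 0.00704). Ccn2 had 127 and 526 against 93.1 and 199 in mesentery and 347 and 932 against 549 and 395 in adipose, a fitted -1.48 ± 0.29 (SE), and -0.39 in cluster 6 alone. Sparc differed by -0.95 ± 0.21 (SE), Sparcl1 by -1.33 ± 0.30 (SE) and Adamts1 by -0.85 ± 0.18 (SE). The edgeR adjusted p were 0.0168 for Ccn2 (1 in cluster 6), 0.028 for Sparc, 0.0322 for Sparcl1 and 0.0222 for Adamts1. In cluster 6 alone Sparc, Sparcl1 and Adamts1 were not called, with -0.76, -0.79 and -0.74 (edgeR adjusted p = 0.265, 0.727 and 0.131). The 10 fibroblast markers summed to 31.1 and 21.1 CPM in mesentery on chow, 51.5 and 20.1 there with high fat diet, 472 and 225 in adipose on chow and 327 and 47.7 there with high fat diet. Their part in these differences was not tested.

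Apart from Col8a1, these venous calls rested on single libraries, mostly from chow. The Ccn2 call was lost without mesentery on chow A or adipose on chow B (edgeR adjusted p up to 0.139), and those of Col18a1 and Sparcl1 without mesentery on chow A or adipose on chow A (up to 0.0727 and 0.155). That of Adamts1 was lost without adipose on chow A, mesentery on high fat diet A or mesentery on chow B (up to 0.157), and that of Sparc without mesentery on chow A, adipose on chow A, mesentery on high fat diet A or mesentery on chow B (up to 0.107). Sparcl1 was lower in mesentery in 3 of the 4 pairs of libraries.

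In capillary-like cells, where type IV collagen was highest, diet and tissue moved few members. In mesentery 3 of 32 were called with high fat diet, Col18a1 and Fbln5 higher and Ccn2 lower, where 0.81% of all genes were called (0.32% higher and 0.49% lower). Col18a1 had 4 and 14 counts on chow against 39 and 151 on high fat diet, or 41.6 and 4.19 against 245 and 27 CPM. It was higher on high fat diet in both runs, a fitted rise of 2.80 ± 0.46 (SE) (edgeR adjusted p = 0.000129). The 7 lymphatic markers, whose class has high Col18a1, summed to 540.5 and 63.4 CPM in the same libraries on chow against 6817 and 43.1 on high fat diet. Their part in the rise was not tested. In cluster 1, the largest, alone, Col18a1 had a fitted difference of 1.82 (edgeR adjusted p = 1), and the call was lost without mesentery on chow B (0.657). Fbln5 had 125 and 23.6 on chow against 182 and 81.5 on high fat diet and rose by 1.47 ± 0.37 (SE) (edgeR adjusted p = 0.0362), and by 1.90 in cluster 1 alone (edgeR adjusted p = 0.00129). The groups overlap because run A was higher. Fbln5 also had a higher median in lymphatic-like than in capillary-like cells, 315 against 128 CPM. The part of the lymphatic markers in its rise was not tested.

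Ccn2 fell in capillary-like cells of both tissues. It had 41.6 and 76.9 CPM in mesentery on chow against 12.6 and 23.1 on high fat diet, and 103 and 67.2 against 48.4 and 14.8 in adipose. In each tissue both libraries on high fat diet were below both on chow. The run A values in mesentery rest on very few counts, from 41 and 46 cells with 96207 and 159310 UMIs. The fitted changes were -1.64 ± 0.39 (SE) in mesentery and -1.75 ± 0.40 (SE) in adipose, with edgeR adjusted p of 0.0193 and 0.00987. In cluster 1 alone they were -1.52 and -1.92 (edgeR adjusted p = 0.239 and 0.048). With 1 library left out, the changes in the whole class ranged from -3.05 to -0.185 in mesentery and from -2.29 to -0.447 in adipose. The makeup of the class moved with diet in run B, where cluster 3 was more frequent on chow, while in adipose of run A it was more frequent on high fat diet. The 9 adipocyte markers of the class summed to 385 and 3616 CPM against 81.6 and 388 in mesentery and 287 and 3877 against 176 and 196 in adipose. In run B, Ccn2 had 69.2 against 21.8 CPM in cluster 1 and 80.0 against 23.1 in cluster 3 of mesentery. In adipose of run B it had 51.9 against 12.9 and 63.6 against 15.3, lower on high fat diet within each cluster, though from 6 and 4 counts in cluster 3 on high fat diet. Ccn2 was the 1 member of 32 called in adipose, where 0.894% of all genes were (0.358% higher and 0.537% lower). The mesentery calls of Ccn2 and Fbln5 were lost without mesentery on chow B, adipose on chow B or mesentery on high fat diet B (edgeR adjusted p up to 0.989 and 0.898), and the adipose call of Ccn2 without mesentery on chow B, adipose on chow B or adipose on high fat diet B (up to 0.999).

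Between tissues, Mgp and Bgn were lower in capillary-like cells of mesentery, 2 of 32 members where 0.499% of all genes were called (0.245% higher and 0.254% lower). Bgn had 10.4 and 15 CPM in mesentery on chow, 6.28 and 28.2 there with high fat diet, 51.5 and 48 in adipose on chow and 149 and 45.6 there with high fat diet, without overlap. It differed by -1.54 ± 0.30 (SE) (edgeR adjusted p = 0.00192), and by -1.54 in cluster 1 alone (0.0113). In lymphocyte-like cells Bgn had a median of 8.88 (0 to 34.6) CPM, a range that held every mesentery value and no adipose value. The mesentery levels of Bgn are thus not set apart from free RNA. Those of run A came from only 96207 UMIs of the class on chow and 159310 on high fat diet. Mgp had 166 and 19.1 in mesentery on chow, 37.7 and 8.58 there with high fat diet, 559 and 28.3 in adipose on chow and 422 and 26.8 there with high fat diet, a fitted -1.64 ± 0.24 (SE) (edgeR adjusted p = 2.06e-05). In lymphocyte-like cells of both runs Mgp had a median of 48.9 (4.15 to 222) CPM. That range held all these Mgp levels except those of run A in adipose, so the levels within it are not read as expression. The Mgp call was lost without adipose on chow B (edgeR adjusted p = 0.067) and that of Bgn without mesentery on chow B or adipose on chow B (up to 1). The test for a different diet effect in the tissues called 0 of 32 members, where 0.0377% of all genes were called (0.0282% higher and 0.00942% lower), and Loxl2, Col18a1 and Fn1 had the smallest p, with edgeR adjusted p of 1, 0.397 and 1. Their fitted differences were 2.27 ± 1.27 (SE), 2.14 ± 0.58 (SE) and 1.05 ± 0.86 (SE). Fn1 had 10.4 and 21.5 CPM against 753 and 1.97 in mesentery and 118 and 7.34 against 82.9 and 3.94 in adipose, where 1 library of 46 cells, mesentery on high fat diet A, stood far above the others.

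Type IV collagen can be followed through all 4 classes. In mesentery the fitted differences of Col4a1 and Col4a2 were positive in each class, and 5 of the 8 were called. The other 3 were 0.68 ± 0.27 (SE) for Col4a1 in arterial-like cells and 0.56 ± 0.30 (SE) for Col4a1 and 0.60 ± 0.28 (SE) for Col4a2 in capillary-like cells, with edgeR adjusted p of 0.267, 1 and 0.92. In adipose their levels on chow and high fat diet were 229.7 and 709 against 306 and 1099 CPM for Col4a1 in arterial-like cells, 736 and 1525 against 1375 and 1966 in capillary-like, 115 and 498 against 199.7 and 742 in venous-like, and 344 and 463 against 318 and 337 in lymphatic-like cells. The first 3 classes were higher on high fat diet in both runs, the lymphatic-like class in neither, and none of these was called. In capillary-like cells of mesentery, Col4a1 had 1579.9 and 1164 on chow against 1481 and 2617 on high fat diet, lower in run A and higher in run B. Within the capillary-like class, cluster 20, whose leading genes include Apln, Kit and Angpt2, had the highest run B levels, with 2158, 4672, 4051 and 3664 CPM of Col4a1 in mesentery on chow and high fat diet and in adipose likewise. In the same libraries cluster 1 had 1189, 2349, 1312 and 1858.

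**Figure D4:**
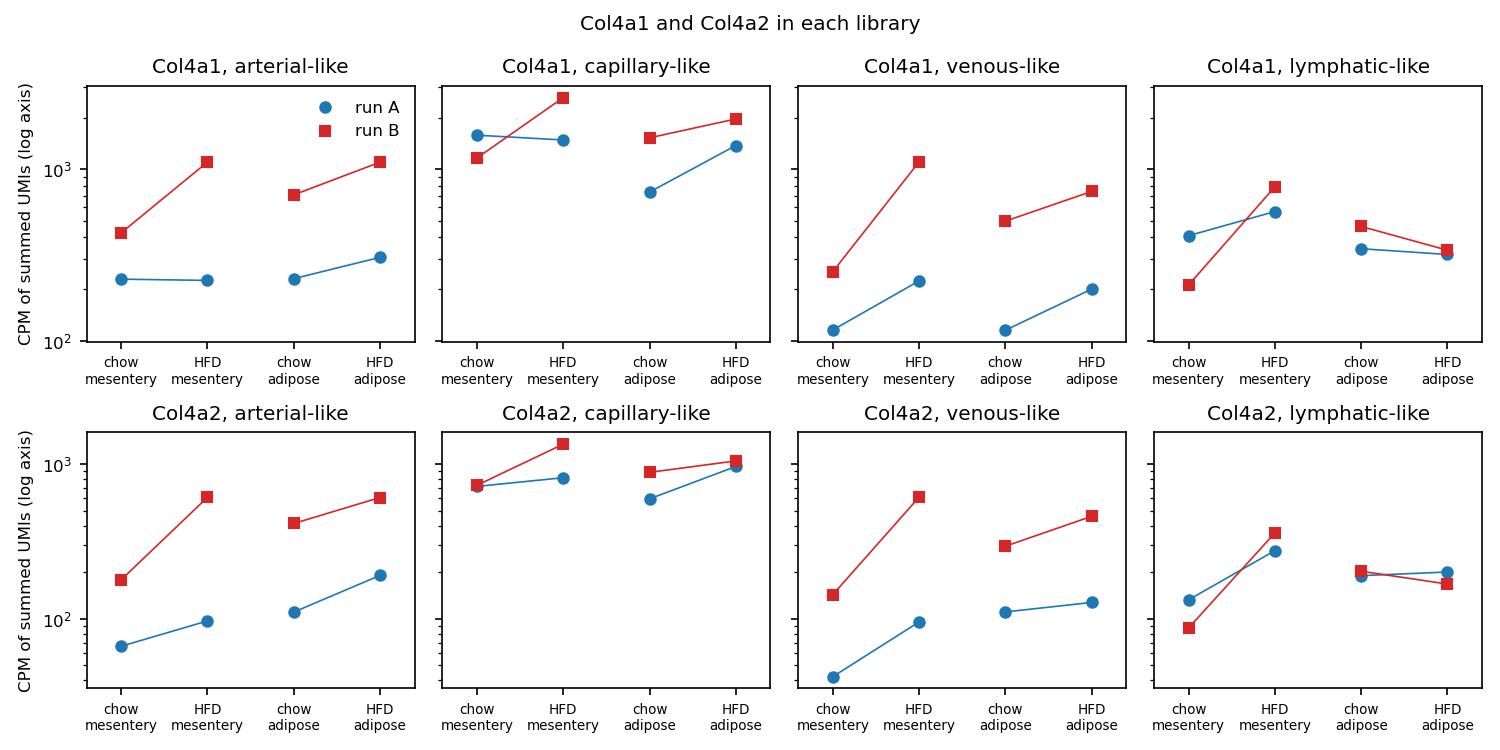
Col4a1 (top) and Col4a2 (bottom) in the 4 endothelial classes by group (horizontal axis) and run (points, joined within a run and tissue), in CPM of summed UMIs on log axes. Lines rise on high fat diet in mesentery in each class and run except Col4a1 in arterial-like and capillary-like cells of run A, and capillary-like cells have the highest levels.

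**Figure D5:**
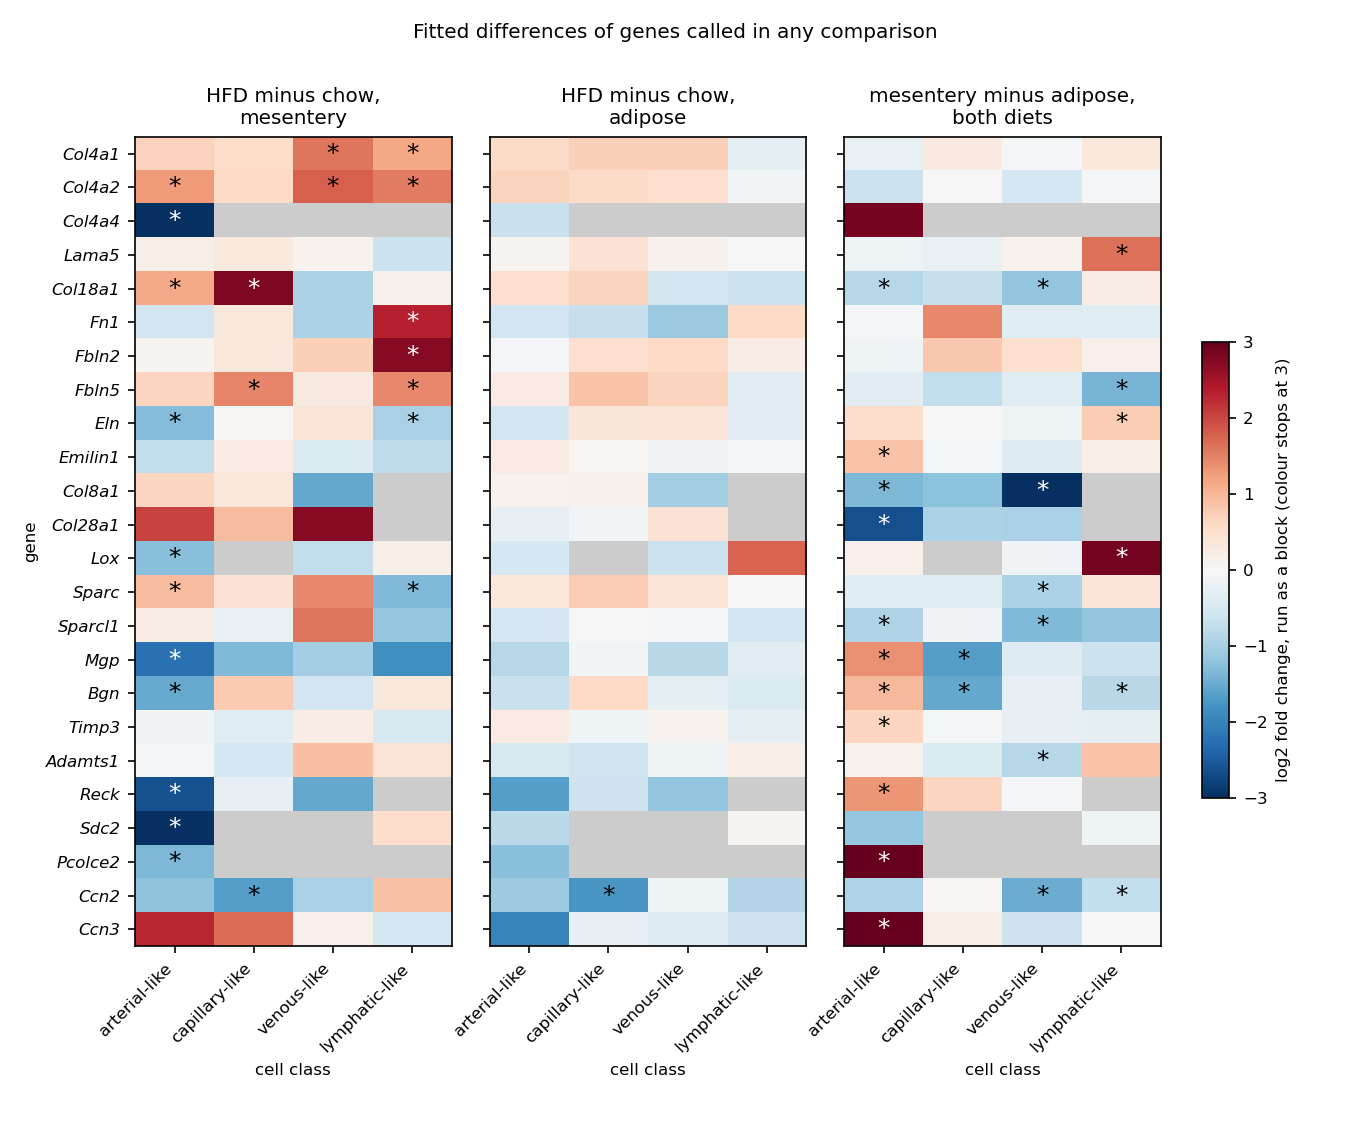
Fitted log2 changes, with the run as a block, of the genes called in any of the 3 comparisons shown, by class (horizontal axis). Panels give high fat diet minus chow in mesentery and in adipose, and mesentery minus adipose; stars mark an adjusted p under 0.05, grey marks genes not tested, and colour stops at 3. Stars are frequent in mesentery, while adipose has 1, that of Ccn2 in capillary-like cells.

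Genes not tested for low counts were Col4a3 and Col4a6 in all 4 classes, Col4a4 in all but arterial-like cells, and Col4a5 in arterial-like and capillary-like cells. The others were Loxl2 in arterial-like, Lox in capillary-like, Sdc2 in capillary-like and venous-like, and Pcolce2 in all but arterial-like cells. In lymphatic-like cells Col15a1, Col8a1, Col28a1 and Reck were not tested either. Lama4, Lamb1, Lamb2, Lamc1, Nid1, Hspg2, Agrn, Fbn1, Mmrn2 and Ccn1 were tested in each class and called in none of the 16 comparisons.

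Other matrix genes were followed in lists of basement membrane genes (12), matrix receptors (18), fibrillar and elastic genes (26), proteases and their inhibitors (15) and collagen making (11 found of 12 listed). In arterial-like cells of mesentery, high fat diet came with 0 of 6 tested other basement membrane genes higher and 1 lower, 1 of 15 receptors higher and 1 lower, 0 of 11 fibrillar and elastic genes higher and 2 lower, and 2 of 12 proteases and inhibitors higher and 2 lower, where 3.04% of all genes were called. Adamts9, a protease of proteoglycans, had 39.1 and 13.4 CPM on chow against 125 and 60.9 on high fat diet, a fitted 1.88 ± 0.27 (SE) (edgeR adjusted p = 0.000365). Itga6, a laminin receptor subunit, rose by 1.06 ± 0.23 (SE), and Ntn4, which disrupts laminin networks, fell, with -1.14 ± 0.26 (SE) (edgeR adjusted p = 0.0124 and 0.0176). Mfap5 and Efemp1, genes of elastic fibres, changed by -2.26 ± 0.47 (SE) and -2.49 ± 0.60 (SE) (edgeR adjusted p = 0.00911 and 0.0225). The calls of all 5 were lost without mesentery on chow B or on high fat diet B, and that of Efemp1 also without mesentery on high fat diet A or adipose on chow B. The highest edgeR adjusted p were 0.0528 for Adamts9, 0.694 for Itga6, 0.797 for Ntn4, 0.802 for Mfap5 and 0.602 for Efemp1. In cluster 4 alone, Adamts9, Itga6 and Ntn4 had 1.22, 0.29 and -0.92, with edgeR adjusted p of 0.211, 0.999 and 0.999, and the other two were not fitted there.

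In lymphatic-like cells of mesentery, 2 of 14 receptors were higher on high fat diet and 3 lower, 0 of 9 fibrillar and elastic genes higher and 1 lower, and 1 of 10 proteases and inhibitors higher and 1 lower, where 6.23% of all genes were called. Itgb4, the integrin subunit that pairs with Itga6, had 25.8 and 28.6 CPM on chow against 60.0 and 75 on high fat diet, a fitted 1.29 ± 0.25 (SE) (edgeR adjusted p = 0.00397). Itga2 and Itga1, collagen receptor subunits, changed by -2.60 ± 0.49 (SE) and -1.07 ± 0.21 (SE) (edgeR adjusted p = 0.00348 and 0.00454). The call of Itgb4 was lost without mesentery on high fat diet B (edgeR adjusted p = 0.0753), and those of Itga2 and Itga1 without mesentery on chow B or on high fat diet B (up to 0.358 and 0.14). In cluster 5 alone, without cluster 19 of mesentery on chow, Itgb4 rose by 4.28 and Itga1 had -0.17 (edgeR adjusted p = 8.76e-05 and 0.797), and Itga2 and Ltbp2 were not fitted. Ltbp2, of the latent TGF-beta binding proteins, had 176 and 257 on chow against 30.7 and 13.6 on high fat diet in mesentery, 0 and 2.55 in adipose on chow against 0 in both libraries on high fat diet. Its tissue difference was called with the block and without it, with edgeR adjusted p of 4.67e-06 and 0.0102. With finer clustering, Ltbp2 was among the leading genes of a Marco-led cluster that, like cluster 19, came almost entirely from mesentery on chow and held no cell from adipose, and the part of that cluster in these differences was not tested. In capillary-like cells, Mmp14, a membrane metalloproteinase, had 31.2 and 2.09 in mesentery on chow against 301 and 20.4 on high fat diet, a fitted 3.45 ± 0.54 (SE) (edgeR adjusted p = 4.30e-05). The run A values in mesentery came from 41 cells on chow and 46 on high fat diet. Nid2, the other nidogen, changed by 1.60 ± 0.41 (SE) there (edgeR adjusted p = 0.0424). The Mmp14 call was lost without mesentery on chow B (edgeR adjusted p = 0.641), and that of Nid2 without mesentery on high fat diet A or any run B library (up to 0.877). In cluster 1 alone they had 3.29 and 0.92 (edgeR adjusted p = 0.365 and 1). In venous-like cells 1 of 13 fibrillar and elastic genes was higher in mesentery than in adipose and 3 lower, where 2.05% of all genes were called. Dcn had -3.44 ± 0.37 (SE) (edgeR adjusted p = 0.000154), a call that remained without each single library, and -1.85 in cluster 6 alone (edgeR adjusted p = 0.388).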

How the data were processed

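The authors deposited raw UMI count matrices for 8 libraries. Per the file headers, run B was made with Cell Ranger 5.0.0, and those of run A give software version 3.0.2. The submitters' processing notes name mm10 and Seurat 4.3.0. Barcodes with at least 500 UMIs, 300 genes and at most 10% mitochondrial UMIs were kept (23970 of 27944), and 857 doublets were removed with Scrublet at a set rate of 0.8% per 1000 barcodes, since its own threshold marked 36. The share over the mitochondrial limit was 22.8 to 30.8% in run A and 5.4 to 9.0% in run B. The 23113 cells were clustered with scanpy 1.11.5 (2000 variable genes without the 39 members and other matrix genes, 30 components, 20 neighbours, Leiden resolution 1.0, 29 clusters). Genes were first scaled within each run, and the components were corrected for run with a Harmony-type step. The clusters thus come from run-corrected data, while levels and tests use the raw counts. A cluster was named where at least 3 markers were raised 1.5-fold, and 3785 endothelial cells stayed unnamed.

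Counts per class and library with at least 20 cells were tested with edgeR 4.0.16 (TMM, filterByExpr, Benjamini-Hochberg), all 4 groups in 1 fit. DESeq2 1.42.0 was an alternative. The run letter pairs libraries, since deviations from group means correlated in each of 6 pairs, with r of 0.50 to 0.63 in arterial-like, 0.28 to 0.42 in capillary-like, 0.55 to 0.68 in venous-like and 0.61 to 0.69 in lymphatic-like cells. On simulated counts for diet in mesentery in arterial-like cells (10376 genes), 4-fold changes were recovered in 86% without and 87% with the block, and 2-fold changes in 10% with either. The simulation gave every gene the same spread and no difference between runs, and changed only genes above a limit of mean counts. It therefore cannot show how the fits compare in the real counts, where the runs differ. Members named per comparison were up to 10 called ones by smallest p or, with none called, the 3 smallest p. Members and lists were chosen with earlier results of these data known. Other tools were R 4.3.3, limma 3.58.1, Python 3.11.15, numpy 2.4.6, scipy 1.17.1, pandas 2.3.3 and leidenalg 0.10.2.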

Additional observations from a re-analysis of the deposited data

Results flagged for a closer look

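In lymphatic-like cells the effect of diet differed between mesentery and adipose for 6 genes, by the test of the difference itself with the run as a block. Fbln2, Fn1 and Col4a2 had differences of 2.49 ± 0.38 (SE), 1.74 ± 0.33 (SE) and 1.66 ± 0.34 (SE). Ccn2 had 41.5 and 25.6 CPM in mesentery on chow against 60.0 and 56.8 on high fat diet, and 75.6 and 121 against 55.6 and 49.8 in adipose, each chow against high fat diet. It was higher on high fat diet in mesentery and lower in adipose in both runs, a difference of 1.77 ± 0.40 (SE) (edgeR adjusted p = 0.0449), and 0.79 in cluster 5 alone (0.775). Fbln5 differed by 1.75 ± 0.40 (SE) (edgeR adjusted p = 0.0459), and by 0.88 in cluster 5 alone (0.39). Sparc had 98.5 and 272 in adipose on chow against 100.4 and 265 on high fat diet, and differed by -1.33 ± 0.30 (SE) (edgeR adjusted p = 0.0432). In cluster 5 alone the difference of Sparc was 3.37 (edgeR adjusted p = 0.00312), in the other direction. The call of Ccn2 was lost without either run A library on high fat diet or any of run B, that of Fbln5 without any library but mesentery on chow A, and that of Sparc without any but the libraries of mesentery on chow (edgeR adjusted p up to 0.344, 0.266 and 0.349).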

How the results depend on the processing

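Counts of genes called moved with the replicate block, that is with the pairing of runs, and with the filter. In the order diet in mesentery, diet in adipose, tissue and their interaction, edgeR without it called 0, 0, 0 and 0 genes in arterial-like cells and 315, 29, 258 and 1 with it. The pairs were 0, 0, 0 and 0 against 86, 95, 53 and 4 in capillary-like, 0, 0, 3 and 0 against 25, 7, 218 and 0 in venous-like, and 0, 0, 52 and 0 against 563, 0, 424 and 100 in lymphatic-like cells. Without the filter on low counts and without the block the counts were 69, 14, 103 and 2 in arterial-like, 15, 14, 25 and 0 in capillary-like, 51, 22, 267 and 11 in venous-like, and 339, 19, 369 and 81 in lymphatic-like cells. DESeq2 called 1, 0, 8 and 0, then 2, 0, 0 and 1, then 2, 0, 94 and 0, then 103, 0, 145 and 12, in the same class order. Cells of at least 1000 UMIs gave 12 for diet in mesentery in lymphatic-like cells without the block. In the largest cluster alone with the block, chosen after seeing the data, arterial-like cells gave 15 for diet in mesentery and 43 for tissue, capillary-like 30 and 39 for diet in mesentery and adipose, venous-like 9, 21, 28 and 4, and lymphatic-like 272, 8, 152 and 23. Leaving out 1 library without the block gave 0 to 0 everywhere except tissue in venous-like (0 to 30) and lymphatic-like cells (3 to 44) and diet in mesentery in lymphatic-like cells (0 to 8). With the block the ranges were 15 to 512, 0 to 97, 55 to 443 and 0 to 66 in arterial-like, 6 to 168, 1 to 177, 1 to 92 and 0 to 13 in capillary-like, 15 to 174, 0 to 65, 132 to 369 and 0 to 29 in venous-like, and 226 to 771, 0 to 19, 240 to 650 and 1 to 297 in lymphatic-like cells. The cause of these moves was not tested.

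Of 71 results on members, 63 kept their direction under every setting run and 8 did not. Col4a2 with diet in mesentery in arterial-like cells ranged from -0.29 to 2.24 without the block when 1 library was left out, negative without mesentery on high fat diet B. Col15a1 with diet in adipose in venous-like cells ranged from -0.23, with library B of adipose on high fat diet left out, to 2.25, and Adamts1 between tissues there ranged from -2.11 to 0.33, with 0.01 in another such fit. Fn1 in the interaction in capillary-like cells ranged from -2.95 to 7.56 without the block and from -0.36 and -2.29 to 6.40 with it, and was -0.77 in the largest cluster. In the largest cluster, the tissue differences of Mgp and Bgn in arterial-like cells were -0.059 and -1.13, and Sparc in lymphatic-like cells was 3.19 for diet in mesentery and 3.37 for the interaction. Capillary-like cells of run A mesentery were the limit of depth: 41 and 46 cells.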
